A study of Mus musculus with 48 samples.

Results

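The comparison set the lacrimal gland (LG) against the spleen of the same animal in the 9 mice of the PBS-T group, the C57BL/6 (B6) mice that were gavaged with PBS alone. Its members were the LG and the spleen library of each PBS-T mouse, joined by the replicate number in the sample titles, which gave 18 of the 48 libraries of the series (9 of 24 mice). Each library held the heavy chains of B cell receptors (BCR), amplified from total RNA with primers in the first constant domain that carry a unique molecular identifier (UMI), and every count stands for 1 consensus of the reads that share a UMI. The PBS-T mice were 5-week-old B6 mice whose feces had been mixed among cages, and which drank ampicillin, vancomycin and metronidazole for 7 days before PBS was gavaged daily for 3 weeks. The 10 NOD-FMT mice had the same pretreatment and received fecal microbiota of NOD.B10.H2b mice, a strain with autoimmune dry eye, and the 5 NC mice were the untreated B6 controls of the BCR libraries. The NOD-FMT and NC mice are used below to ask whether a gland-to-spleen difference itself differed between groups. Their libraries also counted in the removal of shared sequences described below, which was made over all 24 mice of a tissue. Heavy-chain libraries hold no tissue marker genes, so the tissue on the label could not be checked against markers.

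The LG secretes the aqueous part of the tear film. Plasma cells in its stroma make IgA, and epithelial cells carry this IgA into tears, where it binds microbes at the ocular surface. The spleen is a secondary lymphoid organ that holds mainly naive follicular and marginal zone B cells, which express IgM with or without IgD, together with germinal center B cells, memory B cells and plasma cells. A plasma cell holds far more heavy-chain RNA than a naive B cell, so a count follows RNA and not cells, and in these bulk libraries fewer cells of a type and less RNA per cell cannot be told apart.

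Nucleotide sequences that occurred in at least 3 mice of the same tissue were removed, after which the LG libraries held 40105 to 216868 counts and the spleen libraries 71859 to 562589. At these depths, 0 counts still allowed a share of 0.00138% to 0.00748% in the glands and of 0.000533% to 0.00417% in the spleens. Such limits and the intervals below cover counting error only. Of the 9 LG libraries, those of mice 1, 3, 6 and 8 were deposited as merged and held 2 series of sequence identifiers, called runs here. The sample titles do not mention them. Whether they were 2 preparations or 1 library sequenced again is not given, and in the latter case a UMI could be counted in both. In the second runs, 5.15% to 17.5% of clonotypes carried a V gene that the mouse annotation does not list as a functional V gene, against 0.417% to 1.67% in the first runs and at most 1.66% in the other LG libraries. In both runs of each merged gland the largest clonotype was the same, and 97.3% to 99.4% of the counts of a run lay in clonotypes that the other run also held.

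A pair of libraries stood apart. The LG library of mouse 5 held 17213 clonotypes (a clonotype is the set of sequences that share their V gene, J gene and HCDR3 residues), where the other 8 glands held 560 to 976. Only 0.341% of its unique sequences occurred in its own spleen, against 7.95% to 23.8% in the other 8 mice. Its own spleen was still the one it shared most with, since no other PBS-T spleen held more than 0.0381% of them. Of the unique sequences in the gland of mouse 7, 8.81% also occurred in the gland of mouse 5. The removal of shared sequences took 39.8% of the counts of the gland of mouse 5 and 66.6% of those of the spleen of mouse 6, the latter mostly from a single IgM clonotype described below, against at most 11.9% in any other library.

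The tissues differed in the shares of several isotypes. IgA, the antibody class of secretions, made up 13.9% to 97.1% of LG counts (median 86.7%) and 4.06% to 17.8% of spleen counts (median 7.43%). The IgA share was higher in the gland in 9 of 9 mice, by 65.7 percentage points ± 25.7 (SD, n = 9), with an adjusted p of 0.00625 (exact sign-flip permutation test over the 9 mice, two-sided, Benjamini-Hochberg adjustment over the 8 isotypes). The tissues overlapped only because the gland of mouse 9 held 13.9% IgA, below the highest spleens. The gland of mouse 2 held 42.3% and those of mice 3 and 8 held 76.9% and 72.4%, while the other 5 glands lay between 86.7% and 97.1%.

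IgM, the class of naive and marginal zone B cells, made up 0.289% to 48.9% of LG counts (median 3.18%) and 63.1% to 85.8% of spleen counts (median 74.0%). The tissues did not overlap, and the difference was -63.0 percentage points ± 17.3 (SD, n = 9; exact sign-flip permutation, adjusted p = 0.00625). IgD, which naive B cells carry beside IgM, was nearly missing from the gland, at 0.00347% to 0.214% of counts against 3.70% to 7.05% in the spleen. The highest LG value was that of mouse 5, and the other 8 glands held at most 0.0374%. IgG3 behaved likewise, with 0.00520% to 0.270% in the gland and 0.710% to 2.10% in the spleen. IgE was counted 4 to 320 times per spleen library and was at 0 in 7 of the 9 LG libraries, where the limit for 0 counts, up to 0.00748%, lay above the lowest spleen share of 0.00557%, so that separation of the tissues was not resolved at this depth. With each clonotype counted once in every isotype it held, in place of counts, IgG3 turned to 0.221 points higher in the gland and IgE was not called (exact sign-flip permutation, n = 9, adjusted p = 0.112 and 0.348). By counts, IgD and IgG3 did not overlap between the tissues, and IgD, IgG3 and IgE had the same adjusted p of 0.00625 (exact sign-flip permutation, n = 9), the smallest that 5 such isotypes of 8 can reach.

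The other IgG classes did not pass the test by counts. IgG1 averaged 1.88% ± 3.33 (SD) in the gland and 1.06% ± 0.544 in the spleen, IgG2B 5.63% ± 9.51 and 5.10% ± 2.74, and IgG2C 6.396% ± 11.2 and 4.06% ± 3.06 (n = 9; exact sign-flip permutation, adjusted p = 0.953, 0.953 and 0.771). The wide spread of the gland values came from single mice. IgG2B made up 30.5% of the gland of mouse 2 and IgG2C 32.1% of that of mouse 9 and 17.7% of that of mouse 8, and IgG1 made up 10.5% of that of mouse 3, and every other gland held at most 5.36% of each of these classes. The sign of the mean difference turned for IgG2B without mouse 2 (-1.91), for IgG1 without mouse 3 (-0.272) and for IgG2C without mouse 9 (-0.421). With each clonotype counted once in every isotype it held, all 3 classes were higher in the gland, IgG1 by 1.92, IgG2B by 4.02 and IgG2C by 3.99 points (exact sign-flip permutation, n = 9, adjusted p = 0.00521 for each). The stacked bars of isotype shares show the shares by counts.

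**Figure D1:**
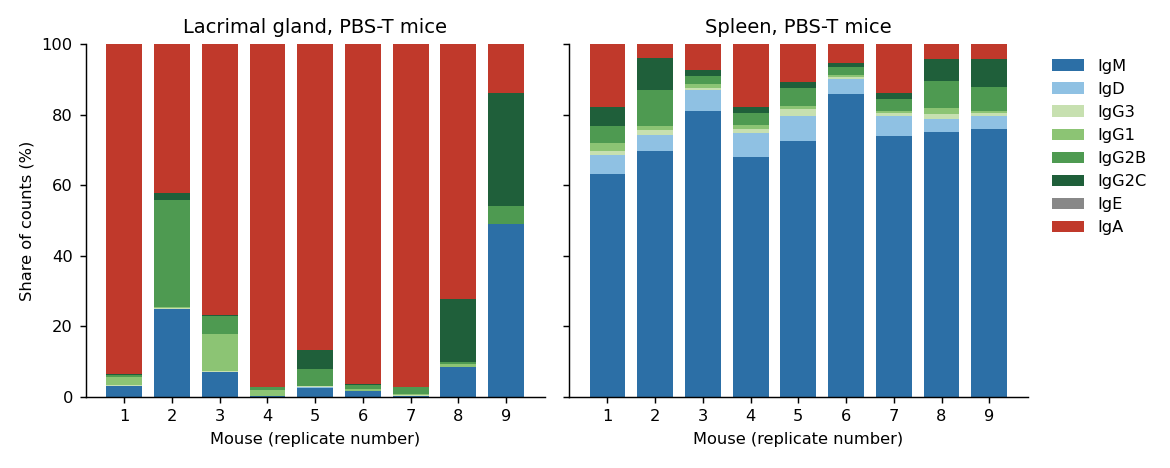
Share of counts (%) of each isotype in the LG (left) and spleen (right) library of each of the 9 PBS-T mice, 1 stacked bar per library. IgA fills 72.4% or more of 7 LG bars, the bars of mice 2 and 9 hold 42.3% and 13.9%, and IgM fills 63.1% to 85.8% of every spleen bar.

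The gland was dominated by few clonotypes. The 10 largest clonotypes held 8.43% to 79.6% of LG counts (median 49.5%) and 5.81% to 45.7% of spleen counts (median 10.1%), and the share was higher in the gland in 8 of 9 mice. The lowest gland, that of mouse 5, held 20.7% when shared sequences were not removed. The difference was 34.8 percentage points ± 22.8 (SD, n = 9; exact sign-flip permutation, adjusted p = 0.0176 over 3 measures of clonality). To reach 50% of the LG counts took 2 to 25 clonotypes in 8 mice and 358 in mouse 5 (110 without the removal of shared sequences), against 33 in the spleen of mouse 6 (1 without the removal, fewer than in any gland) and 395 to 4112 in the other 8 spleens. Pielou evenness, which is 1 when all clonotypes are equally large, was 0.452 to 0.799 in the gland (median 0.620) and 0.597 to 0.870 in the spleen (median 0.794). It was lower in the gland in 8 of 9 mice, the exception being mouse 6, by 0.158 ± 0.117 (SD, n = 9; exact sign-flip permutation, adjusted p = 0.0176). When sequences shared between mice were kept in the mouse with the highest count, the evenness of the spleen of mouse 6 fell to 0.231, and neither evenness (adjusted p = 0.170, exact sign-flip permutation) nor the share of the 10 largest clonotypes (adjusted p = 0.0586) passed the test. Neither measure passed when no shared sequence was removed. With a minimum count of 2 per clonotype, evenness did not pass either.

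The largest single clonotype held 1.80% to 29.0% of LG counts (median 17.2%) and 1.36% to 40.0% of spleen counts (median 2.13%). Without the removal of shared sequences the lowest gland, that of mouse 5, was at 5.96%, and the largest clonotype was the same one in each of the 9 glands. Apart from mouse 6 at 40.0%, no spleen exceeded 4.51%. The difference of 8.67 percentage points ± 12.2 (SD, n = 9) missed the threshold (exact sign-flip permutation, adjusted p = 0.0781), and without mouse 6 it was 11.8 points (exact sign-flip permutation over 8 mice, adjusted p = 0.0156). The curves of cumulative counts show the glands rising far earlier than the spleens.

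**Figure D2:**
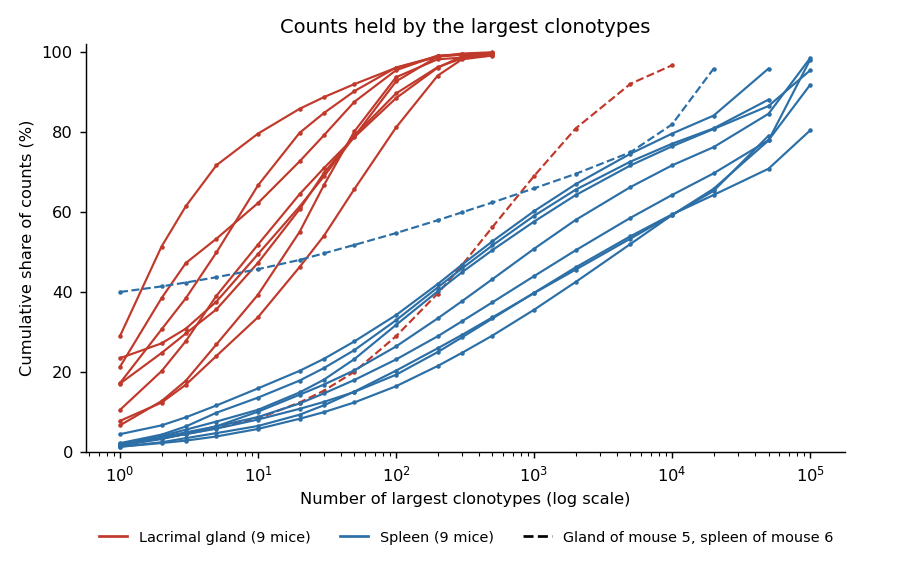
Cumulative share of counts (%) held by the largest clonotypes against their number (log scale), 1 line per library, red for the LG and blue for the spleen of the 9 PBS-T mice. The 10 largest clonotypes hold 33.7% or more in 8 glands and 8.43% in that of mouse 5 (dashed red), and at most 15.9% in 8 spleens and 45.7% in that of mouse 6 (dashed blue).

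The largest clonotype of a gland was IgA in mice 1, 4, 5, 6, 7 and 8, IgG2B in mouse 2, IgG1 in mouse 3 and IgG2C in mouse 9. The rearranged HCDR3, the loop that does most to set what an antibody binds, is shown for each so that the rearrangement can be compared between the tissues base by base. In 8 of the 9 mice the leading HCDR3 nucleotide sequence of this clonotype was also the leading one in the own spleen, base for base, so that 1 line stands for both tissues and no base is in capitals. The clonotype of mouse 5 had no count in its spleen, which allows a share of up to 0.000828%, and it was in 2 other PBS-T glands. That of mouse 1 was also in 5 other PBS-T spleens and 1 other gland, and that of mouse 8 in 1 other gland. The rest were in no other PBS-T library after the removal of shared sequences.
Mouse 1, IGHV1-9 and IGHJ2, IgA: gcaagagggggtaactactttgactac
Mouse 2, IGHV1-9 and IGHJ2, IgG2B: tactacggtagtagctttgactac
Mouse 3, IGHV1-15 and IGHJ3, IgG1: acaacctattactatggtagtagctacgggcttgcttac
Mouse 4, IGHV1-82 and IGHJ2, IgA: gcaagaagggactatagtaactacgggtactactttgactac
Mouse 5, IGHV1-53 and IGHJ2, IgA: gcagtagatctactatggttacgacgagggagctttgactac
Mouse 6, IGHV1-53 and IGHJ2, IgA: gcaaagcgtctctacgactac
Mouse 7, IGHV1-22 and IGHJ1, IgA: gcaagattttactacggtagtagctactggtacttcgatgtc
Mouse 8, IGHV10-3 and IGHJ2, IgA: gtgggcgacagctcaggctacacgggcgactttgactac
Mouse 9, IGHV1-72 and IGHJ2, IgG2C: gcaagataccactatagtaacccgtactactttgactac

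All 7 V genes of these clonotypes lie on the minus strand of mouse chromosome 12 (GRCm38). IGHV1-9 is at chr12:114583569-114584002, IGHV1-53 at chr12:115158403-115158835 and IGHV10-3, the only one outside the large IGHV1 family, at chr12:114523441-114523905. These clonotypes were chosen as the largest of the gland, so that a higher share there is a description. The 8 found in both tissues were 12.2 to 1791 times as abundant in the gland as in the own spleen, or 13.1 to 586 times when shared sequences were not removed. The removal moved that of mouse 7 from 445 to 1791 times and that of mouse 6 from 307 to 104.9 times. That of mouse 1 held 7.83% of LG counts (95% Wilson interval 7.58% to 8.09%) and 0.643% of spleen counts (0.617% to 0.669%), where it ranked 8th. That of mouse 7 held 17.3% of LG counts (16.96% to 17.6%) and rested on 21 counts in the spleen, or 0.00965% (0.00631% to 0.0148%), where 91 counts were present before shared sequences were removed.

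The isotype of such a clonotype could differ between the tissues. The clonotype of mouse 2 was 90.4% IgG2B in the gland, while in the spleen 51.9% of its 131 counts were IgM and 45.8% IgG2B. That of mouse 4 was 99.98% IgA in the gland and 66.8% IgM with 31.5% IgA in the spleen, and that of mouse 8 was 99.99% IgA in the gland and 54.8% IgM with 39.8% IgA in the spleen. In mouse 9 the clonotype was IgG2C in both, at 86.6% and 66.2%. Mutations, counted as mismatches to the germline V gene, averaged 0.0255 in the gland clonotype of mouse 2, 0.0255 in that of mouse 7 and 0.0282 in that of mouse 9, so that 97.7% to 97.9% of the counts of these 3 clonotypes had an unmutated V segment. The largest clonotypes of mice 1, 3, 4 and 8 carried 4.28, 4.14, 3.81 and 2.62 mutations, and at most 0.672% of their counts were unmutated. That of mouse 5 carried 3.8004 mutations with 4.72% of counts unmutated, and that of mouse 6 carried 0.284 with 72.4% unmutated. Without the removal of shared sequences that of mouse 5 carried 2.88 mutations with 13.6% unmutated.

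The abundant LG clonotypes were mostly present in the matching spleen. Of all LG clonotypes, 2.14% to 60.5% (median 30.5%) occurred in the own spleen, and the spleens of the other 8 PBS-T mice held 0.816% to 6.14% of them on average. The excess was 30.3 percentage points ± 17.95 (SD, n = 9), positive in 9 of 9 mice (exact sign-flip permutation, adjusted p = 0.00391, the smallest that 9 mice allow, over 5 measures). By counts, clonotypes found in the own spleen made up 75.6% to 97.1% of 8 LG libraries and 3.84% of that of mouse 5, against means of 0.696% to 19.1% for the other spleens. Without mouse 5 the excess was 33.9 points for clonotypes and 82.5 points for counts (exact sign-flip permutation over 8 mice, adjusted p = 0.00781 for both), and the own and the other spleens no longer overlapped.

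By identical nucleotide sequence over the whole variable region, 0.341% to 23.8% of LG sequences (median 12.02%) occurred in the own spleen and 0.0154% to 0.131% on average in the others, and the values did not overlap in any mouse. The earlier removal of sequences shared by at least 3 mice of a tissue keeps the values of the other spleens low. The excess held for LG clonotypes of IgA, at 33.7 points ± 17.9, and for those of IgM, at 25.1 points ± 20.6 (SD, n = 9; exact sign-flip permutation, adjusted p = 0.00391 for both). In the other direction the shared clonotypes were a small part of the spleen, 0.147% to 0.604% of its clonotypes and 4.91% to 46.9% of its counts. Sharing went with size. Without mouse 5, 5.64% to 27.8% of LG clonotypes with a single count were found in the own spleen, 12.7% to 71.3% of those with 2 to 9 counts, 42.7% to 84.4% of those with 10 to 99 counts and 66.3% to 97.6% of those with 100 or more. In mouse 5 these shares were 0.950%, 2.79%, 4.82% and 2.93%, and the means of the other spleens were 0.516% to 1.32%. Of the 10 largest LG clonotypes of each mouse, 74 of 80 were in the own spleen in 8 mice and 2 of 10 in mouse 5. Of the 10 largest spleen clonotypes, 51 of 80 were in the own gland in these 8 mice and 2 of 10 in mouse 5.

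**Figure D3:**
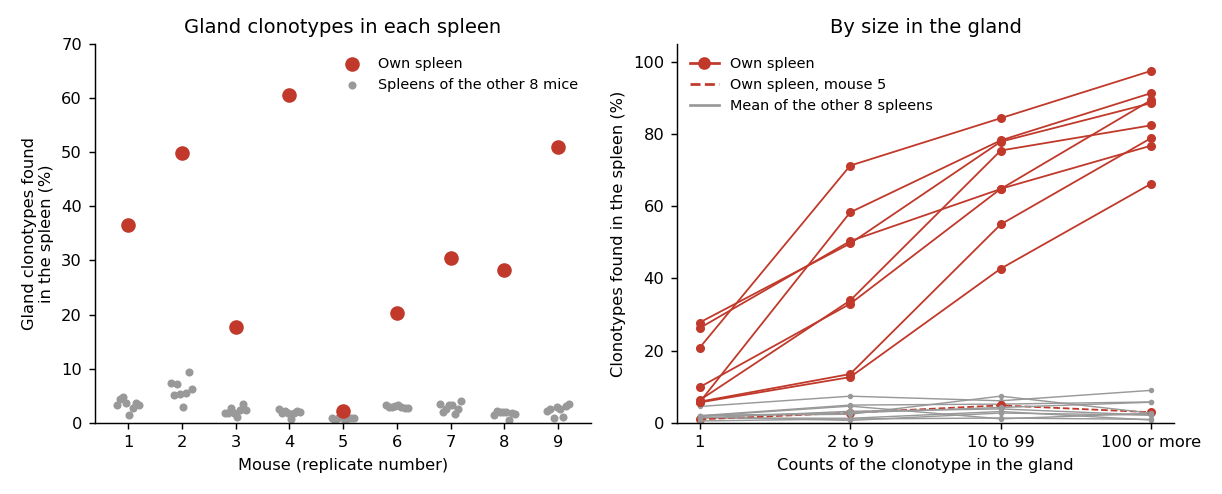
Left, share of LG clonotypes (%) of each PBS-T mouse found in its own spleen (red) and in each of the spleens of the other 8 mice (grey). Right, the same share by the counts of the clonotype in the gland, 1 line per mouse: in 8 mice the own spleen rises from 5.64% to 27.8% at 1 count to 66.3% to 97.6% at 100 or more, while mouse 5 (dashed) stays at or below 4.82%.

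Weighted by counts, clonotypes present in both tissues of a mouse still differed between them in isotype and mutations. Within the clonotypes held by both tissues of a mouse, IgA made up 13.5% to 97.6% of counts in the gland (median 94.2%) and 5.12% to 69.7% in the spleen (median 43.5%). The difference was 40.5 percentage points ± 23.8, higher in the gland in 9 of 9 mice (SD, n = 9; exact sign-flip permutation, adjusted p = 0.00586 over 3 measures). In the spleen, IgA made up 3.68% to 11.99% of the counts of the remaining clonotypes. By counts over all isotypes, the shared clonotypes carried 0.332 to 1.72 mutations in the gland (median 1.08) and 0.437 to 3.16 in the spleen (median 2.49). Large clonotypes weigh most in these means, and shared clonotypes were not compared with each counted once. The shared clonotypes carried fewer mutations in the gland in 8 of 9 mice, by 0.937 ± 0.840 (SD, n = 9; exact sign-flip permutation, adjusted p = 0.0195), and the exception was mouse 6.

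The spleen clonotype of mouse 6 was singled out after its values were seen. Before shared sequences were removed, 78.5% of the 215159 counts of this spleen (95% Wilson interval 78.3% to 78.6%) belonged to a clonotype of IGHV2-9-1 and IGHJ2 with an HCDR3 of 14 residues, and 97.9% of its counts were unmutated. Its leading HCDR3 held 99.8% of them.
Mouse 6, IGHV2-9-1 and IGHJ2: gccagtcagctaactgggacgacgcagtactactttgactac
In the spleen 98.6% of its counts were IgM and 0.824% IgA. In the gland of the same mouse it held 1246 counts, 2.19% of the library before the removal and the 8th rank, of which 66.3% were IgA and 33.1% IgM, and 97.3% were unmutated. The other 8 glands held none of it, and the other spleens held 0 to 3 counts before the removal.

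Few shared clonotypes recurred after sequences found in at least 3 mice of a tissue were removed. That step itself limits the recurrence of identical nucleotides, and recurrence before it was not counted. Of the clonotypes in both tissues of a mouse, 2422 did so in 1 mouse, 39 in 2 mice, 7 in 3, 1 in 4 and 2 in 5. A clonotype of IGHV1-76 and IGHJ2 with 11 residues was in both tissues of mice 1, 3, 4, 6 and 8. In these 5 glands it held 0.0150% to 4.48% of counts, all of them IgA, and in their spleens 0.0747% to 0.637%, with 72.0% to 95.7% IgA. Its leading HCDR3 in the gland equaled that in the own spleen in all 5 mice and differed between mice at bases that leave the amino acids unchanged. The removal of sequences in at least 3 mice may have added to these differences between mice, which was not tested. The sequences are shown because they separate recurrence of the loop from recurrence of the nucleotides, with capitals at bases that differ from mouse 1.
Mouse 1: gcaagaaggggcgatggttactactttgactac
Mouse 3: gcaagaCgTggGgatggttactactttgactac
Mouse 4: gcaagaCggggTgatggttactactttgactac
Mouse 6: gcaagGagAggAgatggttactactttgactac
Mouse 8: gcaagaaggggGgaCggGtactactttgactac

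The 7 clonotypes in both tissues of 3 mice tied, and the 3 of them with the highest mean share of LG counts are described here with those in 4 and 5 mice. These 5 were smaller in the gland. A clonotype of IGHV1-55 and IGHJ3 with 6 residues was in both tissues of mice 2, 3, 6, 7 and 9, at 1 to 36 LG counts, all IgA. A second clonotype of IGHV1-76 and IGHJ2 (mice 1, 4 and 7) held 0.0475% to 0.349% of the glands, again all IgA, and 1.37% of the spleen of mouse 7. A pair of IGHV3-6 clonotypes, with IGHJ2 (mice 1, 5, 7 and 8) and IGHJ1 (mice 1, 2 and 5), held at most 0.109% of any gland, all IgA. Gland and spleen had no HCDR3 nucleotide sequence in common for the IGHJ2 clonotype in mice 5 and 8. The same was so for the IGHJ1 clonotype in mouse 5. The IGHJ2 clonotype rested on 1 count in the glands of mice 7 and 8 and in the spleens of mice 5 and 7. The IGHJ1 clonotype rested on 1 count in the spleen of mouse 5. The remaining one, of IGHV1-26 and IGHJ1 (mice 2, 8 and 9), differed from the others in isotype. It had no IgA count in the 3 glands and was 99.03% to 99.8% IgM in their spleens, where it held 0.482% to 2.15% of counts. Its leading nucleotide sequence was the same in these 3 mice.

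IgA sequences were less mutated in the gland than in the spleen. Weighted by counts, IgA carried 0.346 to 3.10 mutations per V alignment in the gland (median 1.10) and 2.02 to 3.72 in the spleen (median 2.93). It was lower in the gland in 8 of 9 mice, by 1.44 ± 1.06 (SD, n = 9; exact sign-flip permutation, adjusted p = 0.0313 over 4 isotype classes). The exception was mouse 5, at 3.10 against 2.02, and without it the mean difference was -1.76 ± 0.50 (SD, n = 8; exact sign-flip permutation, adjusted p = 0.0313). Without any of the other 8 mice the adjusted p was 0.0625. With each clonotype counted once, the difference shrank to -0.660 and was not called (exact sign-flip permutation, n = 9, adjusted p = 0.0573). Unmutated sequences made up 14.1% to 81.0% of IgA counts in the gland and 29.9% to 47.6% in the spleen, higher in the gland in 7 of 9 mice, but the difference of 16.1 points ± 20.9 missed the threshold (exact sign-flip permutation, n = 9, adjusted p = 0.109). The lowest gland was that of mouse 2, with 14.1% unmutated IgA.

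IgG carried 0.221 to 2.99 mutations in the gland and 1.16 to 3.69 in the spleen. It was lower in the gland in 7 of 9 mice, by 1.29 ± 1.76, and missed the threshold (exact sign-flip permutation, n = 9, adjusted p = 0.148). The exceptions were mice 3 and 5, and without mouse 5 the difference was -1.68 ± 1.41 (exact sign-flip permutation, n = 8, adjusted p = 0.0469). IgM missed the threshold, with 0.843 ± 0.716 in the gland and 0.962 ± 0.559 in the spleen (exact sign-flip permutation, n = 9, adjusted p = 0.724). With each clonotype counted once, both turned, to 0.0946 for IgG and 0.863 for IgM (exact sign-flip permutation, n = 9, adjusted p = 0.867 and 0.0573). Over all isotypes the means were 1.22 ± 0.791 and 1.27 ± 0.583 (adjusted p = 0.871, exact sign-flip permutation). This overall comparison also depended on the weight: with each clonotype counted once, the gland was higher by 1.50 mutations (exact sign-flip permutation, n = 9, adjusted p = 0.0156). The paired plots of mutations show the mice that went against the mean.

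**Figure D4:**
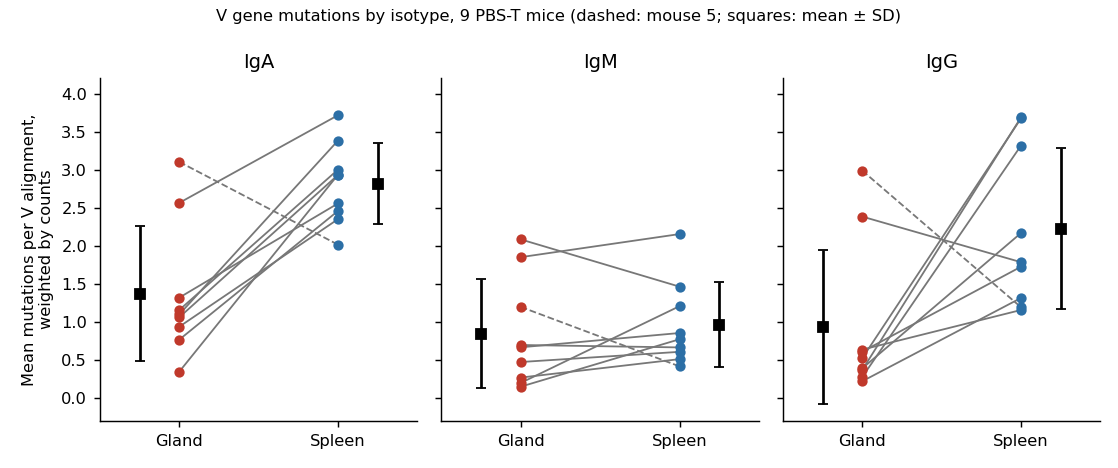
Mean mutations per V alignment, weighted by counts, of IgA, IgM and IgG in the LG (red) and spleen (blue) of each PBS-T mouse, joined by a line (dashed for mouse 5); squares are means ± SD of the 9 mice. IgA lies lower in the gland in 8 of 9 mice (mean 1.37 against 2.82) and IgG in 7 of 9 (0.933 against 2.23).

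V gene usage differed for a minority of genes. Usage was the share of distinct clonotypes of a library that used a V gene, and 89 of 145 genes held on average at least 0.1% of clonotypes and were tested. Clonotypes of a single count weighed as much as large ones. Without mouse 5 the glands held 3191 clonotypes of 1 count, 891 of 2 to 9, 1210 of 10 to 99 and 659 of 100 or more. By edgeR's quasi-likelihood test with the mouse as a block, 7 genes (7.87% of those tested) were higher in the gland and 9 (10.1%) were lower at an adjusted p under 0.05. No gene passed by the exact sign-flip permutation test of the shares, whose smallest adjusted p was 0.0695 and which left 8 higher and 16 lower genes at an unadjusted p under 0.05. DESeq2 called 13 higher (14.6%) and 5 lower (5.62%). With the first run of merged libraries alone, edgeR called 3 higher (3.53%) and 9 lower (10.6%) of 85 genes, and by counts in place of clonotypes 0 higher and 25 lower (30.9%) of 81, so the direction of the calls depended on the weight. With a minimum of 2 counts per clonotype, edgeR called 4 genes, all among the 16 of the main fit.

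Of the 7 higher genes, 4 were called only when the second runs of the merged glands were included. IGHV3-2 and IGHV1-14 are listed as pseudogenes in GENCODE M21, and IGHV9-2-1 and IGHV9-3-1 are not listed. They held 70, 27, 29 and 29 clonotypes in all 9 glands and 1, 100, 0 and 2 in all spleens, and with the first runs alone they were too rare to be tested. The part of the second runs in these values was not tested further. These 4 genes, IGHV7-1 and the 3 lower genes of under 1% are named here after their values were seen.

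The other 3 higher genes were also called with the first runs alone and without mouse 5, but not by counts. Weighted by counts, IGHV4-1 turned to a call in the other direction, with a log2 fold change of -2.89 (edgeR, adjusted p = 0.0252), IGHV7-1 turned to -1.35 and IGHV1-78 was at 0.13 (edgeR, adjusted p = 0.347 and 0.887). With a minimum of 2 counts per clonotype, or in the 5 glands that were not merged, IGHV1-78 was still called, and IGHV4-1 (0.50 and 1.42) and IGHV7-1 (0.51 and 0.45) were not. IGHV4-1 (chr12:113948282-113948796) held 0.593% to 2.42% of LG clonotypes and 0.139% to 0.409% of spleen clonotypes, with no overlap and a log2 fold change of 1.77 ± 0.31 (SE; edgeR, adjusted p = 1.76e-05). IGHV1-78 (chr12:115868773-115869227) held 0.729% to 2.78% and 0.426% to 0.715%, higher in the gland in 9 of 9 mice and also without overlap (1.32 ± 0.26, edgeR adjusted p = 0.000133). IGHV7-1 (chr12:113896408-113896946), of the S107 family whose members include phosphorylcholine binders, held 0% to 2.04% and 0.274% to 0.357% (1.30 ± 0.34 SE, edgeR adjusted p = 0.00421) and was higher in 8 of 9 mice.

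Of the 9 lower genes, only IGHV6-3, IGHV10-1 and IGHV14-1 were called with a minimum of 2 counts, and in the glands that were not merged the adjusted p of the 9 genes was 0.0577 to 0.606 (edgeR). Among those with at least 1% of clonotypes, IGHV1-50 (chr12:115119748-115120219) changed most in the edgeR fit over all clonotypes. It held 0% to 2.77% of LG clonotypes (median 0.357%) and 1.62% to 2.16% of spleen clonotypes, a log2 fold change of -1.56 ± 0.34 (SE; edgeR, adjusted p = 0.000507). IGHV6-3 (chr12:114391712-114392169) was lower in 9 of 9 mice, at 0.831% to 1.84% against 1.71% to 2.72% (-1.02 ± 0.24, edgeR adjusted p = 0.00118). IGHV1-52, IGHV10-1 and IGHV1-69 fell by 1.08, 1.00 and 0.97 on the log2 scale (edgeR, adjusted p = 0.00307, 0.00624 and 0.00556), each with a single gland above its spleen. IGHV1-82 fell by 0.89 (edgeR, adjusted p = 0.0376) but, of the fits that left out a mouse, was called only in those without mouse 1 or 4. Without any of the other 7 mice its adjusted p was 0.0517 to 0.146 (edgeR), and with the first runs alone it was 0.147. The remaining 3 were IGHV14-1, IGHV1-42 and IGHV1-54, each on average under 1% of clonotypes in both tissues. IGHV14-1 was not called without mouse 1, 5 or 7 (edgeR, adjusted p = 0.0511 to 0.111), nor IGHV1-54 without mouse 7 or 9 (0.0673 and 0.0880). IGHV1-42 was called in the fits without mouse 4, 5 or 8 but in none of the other 6 fits that left out a mouse (0.0564 to 0.139), nor with the first runs alone (0.114). None of these 4 genes was called by DESeq2 (adjusted p = 0.0588 to 0.101).

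By family, the large IGHV1 family (J558) had 2 higher and 6 lower genes of 44 tested, with a median log2 fold change of -0.03, beside -0.00 over all 89 genes, of which 7.87% were higher and 10.1% lower. The S107 family (IGHV7) had 1 higher gene of 2 tested and held 3.09% ± 1.32 of LG clonotypes and 1.74% ± 0.178 of spleen clonotypes (SD, n = 9). Of the IGHV6 genes, IGHV6-6 was not called (0.25 ± 0.26, edgeR adjusted p = 0.554). None of the 8 genes tested of IGHV2, the 8 of IGHV5 or the 3 of IGHV8 was called. The V genes known for phosphatidylcholine-binding B-1 cells, IGHV11-1, IGHV11-2 and IGHV12-3, held 0% to 0.729% of LG clonotypes (median 0.267%) and 0.1001% to 0.200% of spleen clonotypes. Of these, IGHV11-2 alone passed the filter and was not called (log2 fold change 1.23 ± 0.61, edgeR adjusted p = 0.159).

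Among clonotypes of IgA sequences, no V gene of 82 tested was called (0% in either direction). The smallest adjusted p was 0.218 by edgeR's quasi-likelihood test, 6 higher and 9 lower genes had an unadjusted p under 0.05, and DESeq2 also called none. The fold changes of the 12 genes in the plot of called V genes kept their sign in IgA, from 0.85 for IGHV1-78 to -1.19 for IGHV1-50. The IgA clonotypes are part of those from which the 12 genes were called, so the shared sign is no separate support for the calls. The difference between the IgA and the overall fold changes was not tested.

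**Figure D5:**
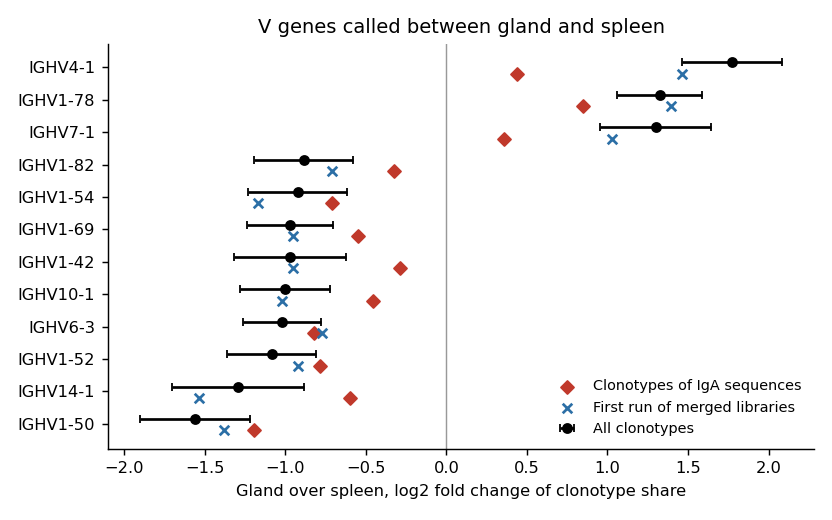
Log2 fold change of the share of clonotypes, LG over spleen, for the 12 V genes that edgeR called and that GENCODE lists as functional V genes. Black points are the estimates over all clonotypes with their SE, red diamonds those over clonotypes of IgA sequences and blue crosses those with the first run of merged libraries only; by clonotypes IGHV4-1, IGHV1-78 and IGHV7-1 lie above 0 and the other 9 genes below it, while by counts, not plotted, IGHV4-1 and IGHV7-1 were below 0.

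Of the 4 J genes, 2 passed the test. IGHJ3 was lower in the gland in 9 of 9 mice, with 16.8% to 24.3% of LG clonotypes and 23.3% to 25.4% of spleen clonotypes, a difference of -3.09 points ± 2.35 (SD, n = 9; exact sign-flip permutation, adjusted p = 0.0156 over 4 J genes). IGHJ1 was higher in 8 of 9 mice, by 3.45 points ± 3.39 (exact sign-flip permutation, n = 9, adjusted p = 0.0391), a call that was lost without mouse 2, 3, 4, 5, 6, 7, 8 or 9 (adjusted p = 0.0625 to 0.0781, exact sign-flip permutation). IGHJ2 and IGHJ4 did not pass (adjusted p = 0.449 and 0.365, exact sign-flip permutation, n = 9). By counts in place of clonotypes, the IGHJ1 difference was 0.648 points. In the second runs of the merged glands 8.65% to 37.4% of IGHJ1 clonotypes carried the allele IGHJ1*01, against 0.943% to 2.06% in their first runs. With the first runs alone, IGHJ1 was still called higher in the gland (exact sign-flip permutation, n = 9). The part of the IGHJ1*01 clonotypes in the difference was not tested separately.

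Mean HCDR3 length was 11.1 to 12.03 residues in the gland (median 11.7) and 11.3 to 11.8 in the spleen (median 11.5). The difference of 0.138 ± 0.379 residues (SD, n = 9) was smaller than the spread between mice (exact sign-flip permutation, adjusted p = 0.534 over 5 HCDR3 measures). With clonotypes of a single count left out it was 0.649 residues (exact sign-flip permutation, n = 9, adjusted p = 0.0195). Among IgA clonotypes the difference was 0.117 ± 0.347, and among IgM clonotypes 0.0182 ± 0.554 (adjusted p = 0.534 and 0.934, exact sign-flip permutation, n = 9). Of 20 alternatives in processing or mice, 1 called the IgM difference higher in the gland (exact sign-flip permutation, adjusted p = 0.0326), and in 6 it was reversed. Net charge averaged -0.266 ± 0.0786 and -0.277 ± 0.0257 (adjusted p = 0.825, exact sign-flip permutation, n = 9). Tyrosine, a residue common in binding loops, made up 20.9% ± 0.586 of HCDR3 residues in the gland and 20.2% ± 0.166 in the spleen. It was higher in the gland in 8 of 9 mice, by 0.774 points ± 0.556 (SD, n = 9; exact sign-flip permutation, adjusted p = 0.0391). The exception was mouse 5 (19.99% against 20.2%), and without any one of the other 8 mice the adjusted p was 0.0781.

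The gland-to-spleen differences of PBS-T mice were last compared with those of the other groups, over 7 measures and 2 groups. Of these 14 tests, 1 passed. The excess of IgA in the gland was 9.57 to 91.1 points in PBS-T mice (median 75.8) and 80.1 to 89.7 points in NOD-FMT mice (median 86.6), and the means differed by -20.1 points (exact permutation of the 19 mice, two-sided, p = 0.00154, adjusted p = 0.0215). The groups overlapped, and the lowest values were those of PBS-T mice 9 and 2. Without mouse 9 the difference was -13.1 points and without both it was -8.21 points (exact permutation p = 0.00327 and 0.00941, adjusted p = 0.0458 and 0.132 over the same 14 tests), so the call was lost without mice 2 and 9. Among merged glands it was -8.29 points (4 against 6 mice, exact permutation p = 0.114) and among the other glands -30.6 points (5 against 4, exact permutation p = 0.0873). Against NC mice the difference was -12.3 points (exact permutation, adjusted p = 0.922). The share of LG clonotypes found in the own spleen averaged 33.0% ± 18.6 in PBS-T, 33.6% ± 8.72 in NOD-FMT and 32.9% ± 9.57 in NC mice (SD; n = 9, 10 and 5), and neither difference passed (exact permutation, adjusted p = 0.994 for both).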

How the data were processed

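Heavy-chain BCR libraries of LG and spleen RNA were analysed for 9 PBS-T mice, with those of 10 NOD-FMT and 5 NC mice for the group comparison. The authors merged paired reads with PEAR, filtered them by quality, grouped reads of a UMI, aligned each group in Clustal Omega and dropped groups of 1 read, and assigned isotypes by constant gene and V and J genes by IgBLAST, and kept productive sequences. They deposited for each unique sequence its counts of consensus sequences, not normalized, and its fraction of the library. The number of mismatches to the germline V gene was used as deposited. Which germline release was used is not given in the sources used here. The labels name mm10, and V gene coordinates were read from the GENCODE M21 annotation of GRCm38.

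Runs of a merged library were summed. Nucleotide sequences present in 3 or more of the 24 mice of a tissue were removed from every mouse. The rule follows the wording of the study's methods but does not recreate the study's step, since it took more counts than the study lists as removed in every PBS-T spleen and in every PBS-T gland but that of mouse 8, most of all in the gland of mouse 5 and the spleen of mouse 6. Isotype shares, mutations and clonality were weighted by counts, and V genes, J genes and HCDR3 properties by clonotypes. LG minus spleen differences were tested by exact sign-flip permutation over the 9 mice (512 patterns, smallest two-sided p 0.00391), V genes by edgeR 4.0.16 with mouse and tissue as terms, the total number of clonotypes as library size and a minimum mean share of 0.1%, and differences between groups by exact permutation of mice, all with Benjamini-Hochberg adjustment at 0.05. The pairs come from the numbers in the titles, and each of the 9 glands shared more identical sequences with the spleen of its number than with any other PBS-T spleen. V genes named are those past the threshold with at least 1% of clonotypes in either tissue, the 8 with the largest change in each direction, and IGHV6 and IGHV11 genes. Clonotypes named are the largest of each gland and the 6 in both tissues of the most mice, with ties broken by the mean share of LG counts. The members and lists were chosen with earlier results of these data known. In simulated data on 89 V genes, edgeR found 80.4% of 2-fold and 100% of 4-fold changes and called 1.16% of unchanged genes. The simulated counts varied less than the real ones, whose common coefficient of variation was 0.342. These rates therefore do not give the power or error of the real fit. R 4.3.3, DESeq2 1.42.0, Python 3.11.15, NumPy 2.4.6, pandas 2.3.3 and SciPy 1.17.1 were used. Alternatives were no or other removal of shared sequences, other weights, a minimum count of 2, thinning to 40105 counts, other normalization and tests, no pairing, and each mouse left out. PB libraries were not analysed here.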

Additional observations from a re-analysis of the deposited data

Results flagged for a closer look

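Dixon's test at the 95% level flags about 1 in 20 sets of normal and independent values. Many sets here were shares and several came from the same library, so this rate need not hold for them. Of 65 sets of 9 values examined, 13 had a lowest or highest mouse that lay far from the other 8 by this test. In the gland of mouse 5 this held for the number of clonotypes (17213), the total counts (216868), IgD (0.214%), IgG3 (0.270%), mean mutations over all isotypes (3.04) and, as the lowest value, the counts in clonotypes of the own spleen (3.84%). In the spleen of mouse 6 it held for the largest clonotype (40.0%), the 10 largest (45.7%) and evenness (0.597). Single values were the 10.5% IgG1 in the gland of mouse 3, the 30.5% IgG2B in the gland of mouse 2, the mean HCDR3 length of 12.5 residues of IgM clonotypes in the gland of mouse 4, which rests on 30 clonotypes, and the 0.0569% IgE in the spleen of mouse 8.

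The excess of IgA in the gland over the spleen differed between PBS-T and NOD-FMT mice by -20.1 percentage points, by the exact permutation test given above.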

How the results depend on the processing

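Values are gland minus spleen, averaged over mice. Alternatives that kept shared sequences in 1 mouse, used first runs only, left out V genes not annotated in GRCm38 or left out mice 5 and 6 were chosen after seeing the data. The shares of IgM, IgA and shared clonotypes were past the threshold in every alternative except where mice were split by merged glands (-71.2, 76.1 and 23.1 points) and other glands (-56.5, 57.3 and 36.002), where 4 or 5 pairs cannot pass. In the same splits IgA mutations were -1.66 and -1.27, evenness -0.122 and -0.188, the 10 largest clonotypes 28.1 and 40.2 points, and 17 and 1 V genes were higher and 9 and 0 lower (in IgA 2 and 2 for merged glands). Merged glands reversed IgG2B (-2.32), IGHJ2 (-0.890), IGHJ4 (1.39), IgM HCDR3 length (-0.195) and charge (-0.0244), and other glands reversed IgG1 (-0.365), overall mutations (0.0556) and unmutated IgM (-1.83). With each clonotype counted once, overall mutations were 1.50, IgA -0.660, IgM 0.863 and IgG 0.0946, and unmutated IgM was -16.9. The IgG3 share was 0.221 with each clonotype counted once in every isotype it held. With each unique sequence counted once, overall mutations were 0.929, IgM 0.641 and unmutated IgM -18.8. With a minimum count of 2, HCDR3 length was 0.649, evenness -0.0689, IgG2B -0.763, IGHJ2 -0.808, IGHJ4 0.614, unmutated sequences 1.0201, and 1 V gene was higher and 3 lower (2 lower in IgA). By counts, HCDR3 length was -0.0639, charge -0.0673 and IGHJ4 1.00, and 0 V genes were higher and 25 lower. Without removal of shared sequences evenness was -0.125, the 10 largest 32.01 and overall mutations 0.0361; with them kept in 1 mouse evenness was -0.123 and the 10 largest 31.9; with removal from 2 mice up the largest clonotype was 12.4 and IgM HCDR3 length -0.0161. Without mice 5 and 6, IgA mutations were -1.77, the largest clonotype 13.6 and unmutated sequences 2.54. V genes higher numbered 3 of 85 tested in first runs, 3 among annotated genes, and 13 of 89 by DESeq2 (5 lower). Without the low filter they numbered 39 of at most 145 (12 lower, and in IgA 1 and 1). By sign-flip permutation 0 of 89 were called in either direction. The genes tested differ between settings, also in the splits by merged glands, so these counts do not compare directly. The cause of these changes was not tested. Without the pairing of gland and spleen (no replicate block), 16 V genes were higher and 10 lower, and these held 14 of the 16 V gene calls made with the pairing. The IgG mutation difference of -1.29 then passed (exact permutation of 9 against 9, adjusted p = 0.0387), and no other call outside the V genes changed. Leaving out each mouse gave ranges of -0.359 to 0.0965 for overall mutations, -1.76 to -1.30 for IgA mutations, 6.68 to 11.8 for the largest clonotype, 6 to 9 V genes higher and 5 to 9 lower (0 to 1 lower in IgA), -1.91 to 1.48 for IgG2B, -0.272 to 1.04 for IgG1, -0.421 to 3.51 for IgG2C, -0.111 to 0.0977 for IgM HCDR3 length, -0.00379 to 0.0277 for charge and -6.99 to 1.11 for unmutated sequences. No V gene assignments were tied, so leaving out ties was not run.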
